A study of Caenorhabditis elegans with 79 samples.

Results

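The 23H-RNAs described here are primary small interfering RNAs (siRNAs) from the minor double-stranded RNA (dsRNA) loci of Caenorhabditis elegans. They are the sequences of the authors' class 23H-RNA that were not assigned to the strong hairpins F43E2.6, mir-5592 and a hairpin at Y57G11C (another locus than Y57G11C.51), nor to ribosomal RNA, and that averaged at least 1 RPM (reads scaled to the library total, a unit inferred from the deposited values) in 3 co-immunoprecipitates (co-IPs) of the Argonaute GFP::RDE-1 under nrfl-1 RNAi. That rule kept 304 of 1194 sequences, from 60 of the 179 named loci of the class. The nearest sequences left out averaged 0.98, 0.983 and 0.993 RPM, and the nearest kept averaged 1.0, 1.003 and 1.003 RPM. The members were chosen by their level in those 3 co-IPs, so the levels in these co-IPs are given without a test. Fits of the table that holds them used them for the filter on low values and for the spread, and results of that table are also given for the 9 other libraries alone.

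The study sequenced small RNAs from whole animals grown at 20 °C and from Argonaute co-IPs, and 59 libraries in 6 tables carry this class. GFP::RDE-1 was precipitated from gravid hermaphrodite adults of the tagged strain rde-1(cmp133[(GFP::3xFLAG)::rde-1]), with the added mutation rde-4(syb6665) or without it. There were 3 libraries per fraction for animals fed nrfl-1 RNAi and 2 for animals fed RNAi against both nrfl-1 and oma-1, called combined RNAi below. It was also precipitated from adults with FLAG-tagged rde-4(cmp320[rde-4::2xFLAG]) fed dcr-1 RNAi or the empty vector L4440, with 3 libraries per fraction. HA::ALG-1, a transgene that also holds Cbr-unc-119(+) and is carried in unc-119(ed3) animals, was precipitated with and without rde-4(syb6665) under nrfl-1 RNAi, with 3 libraries per fraction. Lysates without an Argonaute tag came from rde-1(ne300), rde-4(syb6665) and N2 adults at 72 h under combined RNAi and from rde-4(syb6665) and N2 larvae of the L4 stage at 54 h without RNAi, with 3 libraries each. The strains with an intact rde-4 gene are written rde-4(+) below. Libraries of the combined RNAi, adult and L4 tables were treated with RppH, which opens 5′ triphosphates for cloning. The labels give the replicates numbers without saying whether they came from separate cultures, so p-values measure the spread between these libraries, which may be technical.

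Dicer cuts dsRNA into siRNA duplexes that carry short unpaired 3′ ends. RDE-4 is a dsRNA-binding protein that works with Dicer in RNA interference, and RDE-1 is the Argonaute that takes up the resulting primary siRNAs. ALG-1 is an Argonaute best known for binding miRNAs. Worms also make such siRNAs from their own transcripts and repeats that can fold back or pair, and the loci below are the weaker sources of that kind.

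The 60 loci were of mixed origin. By RefSeq's gene table of assembly WBcel235, 16 were protein-coding genes with 83 of the sequences, 13 were pseudogenes with 48, and 6 were noncoding RNA genes with 85. Another 15 were repeat elements with 59 sequences, and 5 were intergenic regions or unnamed hairpins with 19. The remaining 5 names could not be placed in these types. Of the loci, 36 could be placed on a single chromosome, and 5 others carried gene names from several chromosomes. Protein-coding genes held 36.4% of the summed level in the 3 co-IPs that chose the members, repeats 22.1%, noncoding RNA genes 20.4% and pseudogenes 17.5%.

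A single noncoding RNA supplied 76 of the sequences. It was rncs-1 (F55A4.9, X:1011501-1012347, plus strand, WBcel235), a noncoding RNA that folds into a long hairpin and has been described as a Dicer inhibitor. Its 76 sequences had 48 different starts, and the strongest held only 8.53% of the locus. Other loci were narrow. The Y57G11C.51 level came from 1 sequence, and 19 loci had 1 sequence each. The 12 strongest loci held 75.3% of the summed level. Some loci lay close together in the gene table, namely T05E12.8 and T05E12.10 with 3025 bp between them, E01G4.5 and E01G4.7 with 3476 bp, and F39E9.10 and F39E9.7 with 2394 bp.

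The strongest sequence of each of 9 leading loci with a known chromosome is printed below, 5′ to 3′, as DNA letters from the deposited table, as the most abundant siRNA that each of these loci contributed to the co-IPs that chose the members. The capital marks the 5′ base.
rncs-1: Tttggccaagcggactggagcaca
T05E12.8: Tttggcatcgcccgtggtattcc
Y57G11C.51: Agtggagtggatgacgacgacgg
C36A4.14: Ctcctcggtcttgacgaaatccc
F55C9.3: Tacaacgtggagctaagacaccc
Y17D7C.3: Aatcggaaactcaaagaccaca
Y37E11B.2: Tatctcgataccatgtctcaccc
Y116F11A.1: Tagttttgatgactggatctacc
F19B2.5: Atatttggaacagaagcaagagg
Of these loci, rncs-1 lies on chromosome X, C36A4.14 on chromosome III, Y57G11C.51 and Y37E11B.2 on chromosome IV and the other loci on chromosome V. Among all 304 sequences, 162 were 23 nt long and 88 were 22 nt long. The first base was T in 45.1%, C in 30.9%, A in 21.1% and G in 2.96%. Among the 177 sequences of the 3 strong hairpins that also reached 1 RPM, 37.9% were 23 nt long and 32.8% began with T. The 505 weaker sequences of other loci, detected below 1 RPM, were 23 nt long in 44.4% and began with T in 47.1%.

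Both strands of a duplex were often among the members. Of the 304 sequences, 78 in 20 loci could pair with another member over at least 14 bases without a mismatch, and 17 pairs in 13 loci had exactly 2 unpaired nt at both 3′ ends. Pairs from chromosomes V and X are printed below as the clearest view of the cut ends, with the overhang in capitals. They were chosen after their values were seen, and each pair is written with its stronger strand first.
F19B2.5 sequence 1: atatttggaacagaagcaagaGG
F19B2.5 sequence 8: tcttgcttctgttccaaatatGC
F19B2.5 sequence 3: caagaggaagagaaacaaaaGG
F19B2.5 sequence 5: ttttgtttctcttcctcttgCT
ChrX_intergenic1 sequence 1: gacgacgaacgatcgggatgGA
ChrX_intergenic1 sequence 5: catcccgatcgttcgtcgtcGC
ChrX_intergenic1 sequence 2: cgacgacgaacgatcgggatgGA
ChrX_intergenic1 sequence 3: catcccgatcgttcgtcgtcgCC
In the F19B2.5 duplex of sequences 1 and 8, the strands averaged 14.7 and 2.51 RPM in the 3 co-IPs that chose the members, a ratio of 5.86. In the duplex of sequences 3 and 5 they averaged 6.03 and 4.85 RPM. The ChrX_intergenic1 duplexes share 1 end and differ by 1 base in strand length at the other. Their strands averaged 6.53 and 2.57 RPM for sequences 1 and 5, and 6.3 and 4.35 RPM for sequences 2 and 3. Strand levels were thus close in some duplexes and several-fold apart in others.

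Over all 142 strand ends of the complementary members, 63 (44.4%) had a 3′ end with 2 unpaired nt. The share was 10.5% of 2694 strand ends for the 3 hairpins, whose sequences overlapped each other in many registers. Both counts use 1 sequence in several pairs and are given as a description.

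**Figure D1:**
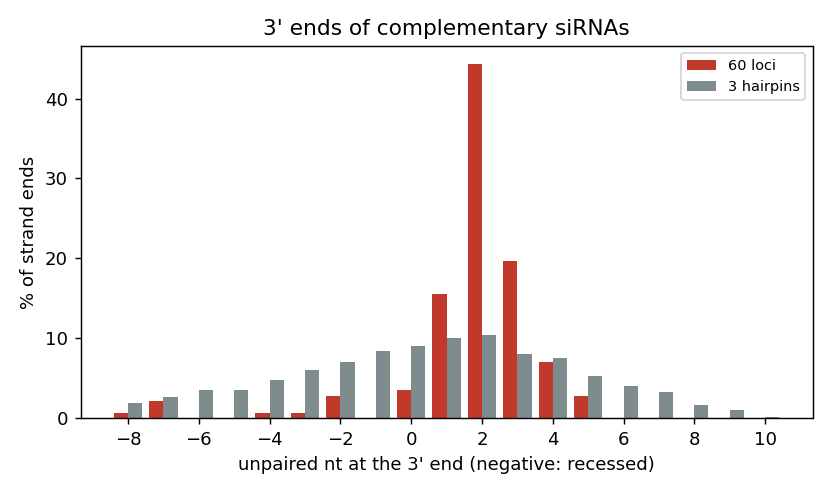
Share of strand ends (vertical axis, %) by the number of unpaired nt at the 3′ end (horizontal axis, negative where recessed), for complementary sequences of the 60 loci in red and of the 3 hairpins in grey. The red bars peak at 44.4% for 2 nt, while the grey bars spread widely with 10.5% at 2 nt.

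Depth could be inferred for 58 of the 59 libraries from the equal steps of low piRNA values; 3 reads correspond to 0.081 to 0.244 RPM. Values below that cannot be told from 0, which covers counting error only. Libraries of the combined RNAi table with the rde-4 mutation stood apart from each other: all 304 members summed to 64.7 and 16.3 RPM in the 2 co-IPs and to 4.93 and 21.9 RPM in the 2 inputs. In the same libraries the fraction of 23H-RNA that these members made up was between 1.75% and 2.12%. All 23H-RNA summed to 275 and 1036 RPM in these rde-4 inputs, against 595 and 683 RPM in the rde-4(+) inputs. The second rde-4 input thus lay above both rde-4(+) inputs for the class. The mir-35 family of miRNAs, which marks embryos inside gravid adults, summed to at least 14296 RPM in every adult lysate and to at most 1525 RPM in every L4 lysate.

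In the 3 GFP::RDE-1 co-IPs that chose the members, rde-4(+) animals had 364, 432 and 357 RPM of rncs-1 siRNA, against 2.24, 2.10 and 1.92 RPM in their inputs. The repeat PAL8C had 194, 288 and 200 RPM in these co-IPs and 0.32, 0.38 and 0.73 RPM in the inputs. Y57G11C.51 was uneven, with 19.8, 32.9 and 376 RPM in the co-IPs, so its mean rests on the third. All members together made up 2.51% ± 0.45 of 23H-RNA in these co-IPs, against 9.11% ± 1.53 in the inputs (SD, n = 3 each).

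An independent precipitation of the same Argonaute came from animals under combined RNAi. The 60 loci summed to 1700 and 2468 RPM in the rde-4(+) co-IPs, against 29.9 and 30.3 RPM in the rde-4(+) inputs. PAL8C had 160 and 249 RPM in the co-IPs and 0.49 and 0.51 RPM in the inputs, a ratio of means of 409. For Y17D7C.3, a pseudogene, the values were 213 and 268 RPM in the co-IPs and 3.81 and 4.76 RPM in the inputs. The co-IP and input libraries of both loci were far apart and did not overlap.

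All 60 loci averaged at least 0.5 RPM in those co-IPs, and 56 at least 1 RPM. In the limma fit (log2(RPM + 1), Benjamini-Hochberg adjustment over all features of the table that averaged 1 RPM or more), 40 loci could be tested and 40 were higher in the rde-4(+) co-IP than in its input, while 3.82% of all 8812 features tested were called higher and 91.4% lower. Only 8 of the 40 loci would have averaged 1 RPM without the rde-4(+) co-IPs, so the direction of this count, and of later counts that set these co-IPs against another group, was largely fixed by the filter. The median of all features moved by -1.89 log2 between the co-IP and the input. Differences of the 40 loci lay between 2.32 for the C40A11.10, mir-8199 locus and 7.06 for PAL8C (SE 0.39, adjusted p = 6.21e-09). Neither of these loci was among the 8 that reach 1 RPM without the rde-4(+) co-IPs.

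**Figure D2:**
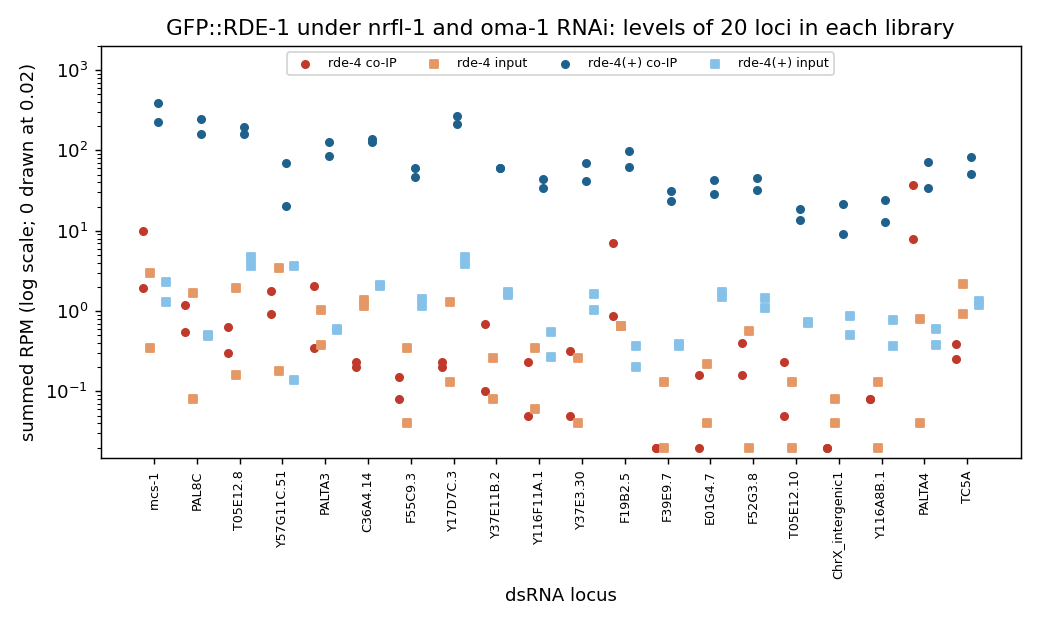
Summed level of the members of 20 loci (vertical axis, RPM on a log scale, 0 drawn at 0.02) in each GFP::RDE-1 library of combined RNAi, for rde-4 co-IP, rde-4 input, rde-4(+) co-IP and rde-4(+) input; each symbol is 1 library. The rde-4(+) co-IPs sit highest at every locus except PALTA4, where 1 rde-4 co-IP at 36.8 RPM lies between the rde-4(+) co-IPs at 34.3 and 72.7 RPM.

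The siRNAs of these loci were nearly absent from GFP::RDE-1 in rde-4 animals. Of all 60 loci, 5 averaged at least 1 RPM in the rde-4 co-IPs under combined RNAi, against 56 in the rde-4(+) co-IPs. In the limma fit 39 of the 40 loci tested were lower in the rde-4 co-IP than in the rde-4(+) co-IP, against 3.85% of all features called lower, a count whose direction the filter largely fixed. Y17D7C.3 had 0.23 and 0.20 RPM in the rde-4 co-IPs, against 213 and 268 RPM in the rde-4(+) co-IPs, a difference of -7.63 (SE 0.34, adjusted p = 1.42e-09). C36A4.14, another pseudogene, had 0.23 and 0.20 RPM in the rde-4 co-IPs and 127 and 137 RPM in the rde-4(+) co-IPs. These rde-4 co-IP values lie within about the range that 3 reads give.

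The exception was the repeat PALTA4. It had 36.8 and 7.94 RPM in the rde-4 co-IPs, against 34.3 and 72.7 RPM in the rde-4(+) co-IPs, and these groups overlapped. Its mean was 41.8% of the rde-4(+) mean, and the difference did not pass the test (adjusted p = 0.0635). F19B2.5, a protein-coding gene, kept 4.96% of the rde-4(+) mean, the next largest share among the 40 loci tested. Its rde-4 co-IPs had 7.11 and 0.86 RPM, against 61.4 and 99.2 RPM in the rde-4(+) co-IPs, and it was called lower (limma, adjusted p = 1.11e-05).

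Enrichment over the input was tested directly as an interaction, the rde-4 co-IP over its input minus the rde-4(+) co-IP over its input. It was lower for 39 of the 40 loci and higher for none, against 2.17% of all features lower and 1.2% higher, with PAL8C at -6.95 (SE 0.55, adjusted p = 1.02e-06) the furthest. These are the same 40 loci, 32 of which passed the filter only with the rde-4(+) co-IPs, so this count too was largely fixed by the filter. PAL8C was among those 32, so the filter favoured the direction of its difference as well. The smallest change among those called was -2.32, for the C40A11.10, mir-8199 locus. PALTA4 was again the locus not called (-1.35, SE 0.74, adjusted p = 0.406).

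A few loci were still enriched with GFP::RDE-1 in the mutant. Under nrfl-1 RNAi, PALTA4 had 5.58, 5.84 and 11.8 RPM in the rde-4 co-IPs, against 0.53, 0.82 and 0.58 RPM in the rde-4 inputs (2.34, SE 0.34, adjusted p = 1.59e-05). For rncs-1 the values were 2.75, 4.56 and 7.32 RPM in the rde-4 co-IPs and 1.49, 0.77 and 0.96 RPM in the rde-4 inputs (1.44, SE 0.33). F19B2.5 had 3.54, 2.23 and 3.07 RPM in the rde-4 co-IPs and 0.53, 0.43 and 0.76 RPM in the rde-4 inputs (1.32, SE 0.29). In each case the 3 co-IPs lay above the 3 inputs, and these were the 3 loci called higher of 43 tested, against 3.62% of all features higher and 80% lower in that comparison. Of the 43 loci, 11 averaged at least 1 RPM in the 9 libraries that did not choose the members, and many of the others were near 0 in both rde-4 groups and could not have been called lower. Fitted on those 9 libraries alone, an alternative chosen after seeing the data, the same 3 of 11 loci were called higher, against 3% of all features. They were also the 3 of the 11 at an unadjusted p under 0.05 (limma). As for lower calls, there were 0, against 85.2% of all features. E01G4.7, C36A4.14, F52G3.8, Y17D7C.3, Y37E11B.2 and T05E12.8 averaged between 0.10 and 0.287 RPM in the rde-4 inputs, so they could hardly have been called lower either.

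Under combined RNAi the same 3 loci were called higher in the rde-4 co-IP than in the rde-4 input, of 40 tested and against 2.03% of all features. PALTA4 rose by 3.75 (SE 0.53, adjusted p = 8.84e-05), with 36.8 and 7.94 RPM in the co-IPs and 0.04 and 0.79 RPM in the inputs. For rncs-1 the co-IPs at 10.0 and 1.95 RPM and the inputs at 0.35 and 2.97 RPM overlapped (1.30, SE 0.55). The rncs-1 and F19B2.5 calls rested on the first rde-4 co-IP, and without it their differences were 0.35 and 0.16. Both were also lost without the first rde-4 input. C36A4.14 and TC5A, a transposon-derived repeat, were called lower in the co-IP, as were 85% of all features. TC5A had 0.39 and 0.25 RPM in the rde-4 co-IPs, against 0.93 and 2.19 RPM in the rde-4 inputs. Its difference of -0.91 was -0.55 without the second rde-4 input, and the call was lost then and without the second rde-4 co-IP. The C36A4.14 call was lost without the second rde-4 input.

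**Figure D3:**
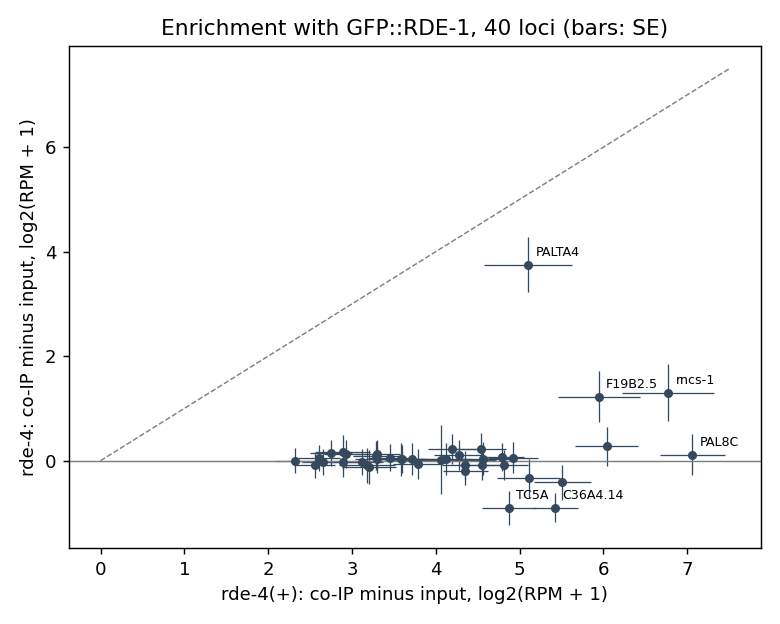
Difference between co-IP and input on the log2(RPM + 1) scale for 40 loci under combined RNAi, in rde-4 animals (vertical axis) against rde-4(+) animals (horizontal axis); points are loci, bars are SE, the dashed line marks equal values. Most points lie near 0 on the vertical axis, with PALTA4 at 3.75, rncs-1 at 1.30 and F19B2.5 at 1.23 above it.

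In lysates, the loci differed in how far their siRNA level fell in rde-4 animals. T05E12.8, a protein-coding gene, had 0.43, 0.13 and 0.30 RPM in the rde-4 inputs under nrfl-1 RNAi, against 5.53, 9.79 and 6.73 RPM in the rde-4(+) inputs (-2.67, SE 0.28, adjusted p = 1.93e-05). Y17D7C.3 had 0.26, 0.26 and 0.17 RPM in the rde-4 inputs and 8.88, 6.05 and 6.23 RPM in the rde-4(+) inputs, which is 3.26% of the rde-4(+) mean and the largest difference on the log2(RPM + 1) scale (-2.69, SE 0.27, adjusted p = 1.09e-05). In these bulk lysates, fewer siRNA-making cells and less siRNA per cell cannot be told apart. Of 43 loci tested, 13 were lower in rde-4 and 0 were higher (limma, with 16 of the 43 at an unadjusted p under 0.05), against 2.73% and 17% of all features. The other loci called lower included E01G4.7 and C36A4.14, which are pseudogenes, and the protein-coding genes F52G3.8, F55C9.3, Y37E11B.2 and Y116A8B.1, whose rde-4 means were 2.46% to 8.53% of the rde-4(+) means. The remaining calls were T05E12.10, ChrX_intergenic1, ChrII_intergenic1, Y59H11AR.6 and Y37E3.30. Without the second rde-4 input 8 loci were called, and the Y37E3.30 call was lost in 8 of 20 alternatives. In the 9 libraries that did not choose the members, 6 of 11 loci were lower and 0 were higher, against 1.99% of all features lower and 1.37% higher. The lower loci were Y17D7C.3, T05E12.8, E01G4.7, F52G3.8, C36A4.14 and Y37E11B.2. At an unadjusted p under 0.05 (limma) there were 7, the other being Y57G11C.51, which was higher in rde-4. Of all 60 loci, 2 averaged 1 RPM in the rde-4 inputs and 13 in the rde-4(+) inputs, so the filter favoured lower calls. The mir-35 family was lower in these rde-4 inputs too, at 109963, 120106 and 106853 RPM, against 196716, 161857 and 172262 RPM in the rde-4(+) inputs; its part in the result was not tested.

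A second set of loci had little siRNA in lysates with or without RDE-4. Y57G11C.51 had 2.00, 0.69 and 2.01 RPM in the rde-4 inputs under nrfl-1 RNAi, against 0.32, 0.51 and 0.67 RPM in the rde-4(+) inputs. The rde-4 values lay above the rde-4(+) values without overlap, as did a large share of all features in this set and the next (shares in the next paragraph). Over the 9 libraries that did not choose the members, the difference was 0.73 (SE 0.28) with an adjusted p of 0.088 in limma. In the ALG-1 strains it had 3.18, 1.12 and 1.32 RPM in the rde-4 inputs and 1.06, 0.50 and 0.60 RPM in the rde-4(+) inputs, again with no overlap. Under combined RNAi its groups overlapped, with 0.18 and 3.42 RPM in the rde-4 inputs and 3.66 and 0.14 RPM in the rde-4(+) inputs. F19B2.5 had 0.74, 0.75 and 0.66 RPM in the rde-4 inputs of the ALG-1 strains, against 0.32, 0.19 and 0.35 RPM in the rde-4(+) inputs.

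The lysates of 5 strain sets could be set side by side. Among loci that averaged at least 0.5 RPM over both groups of a set, every rde-4 library lay below every rde-4(+) library for 12 of 15 loci under nrfl-1 RNAi, against 3.86% of all features at that level, and every one above for 1 locus, against 40.7%. The same held for 16 of 19 loci in the ALG-1 strains against 2.88% of features, with 3 loci the other way against 35%, and for 8 of 13 under combined RNAi against 13.4%, with 0 the other way against 25.8%. It held for 7 of 8 loci in untagged adults against 7.36% of features, with 0 the other way against 28.2%, and for 4 of 6 in L4 larvae against 15.9%, with 1 the other way against 26%. Of all 60 loci, 1 averaged 0.5 RPM in the rde-4 adults, against 14 in N2. Under nrfl-1 RNAi 6 did in the rde-4 inputs, against 19 in the rde-4(+) inputs, and in L4 larvae 4 against 6. Most loci thus passed through the rde-4(+) libraries, which largely fixed the direction of these counts except in L4 larvae. C36A4.14 and Y37E11B.2 were lower without overlap in all 5 sets. T05E12.8, Y17D7C.3 and F52G3.8 reached that level in 4 sets and were lower without overlap in each of them.

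TC5A was an exception. It reached 0.5 RPM on average in 3 sets, and rde-4 and rde-4(+) libraries overlapped in each. In untagged adults it had 0.89, 2.01 and 2.44 RPM in rde-4 and 1.77, 0.96 and 1.25 RPM in N2. In L4 larvae it had 1.70, 1.54 and 2.08 RPM in rde-4 and 1.71, 2.21 and 1.14 RPM in N2. Those 3 sets are the RppH-treated ones, and in the untreated lysates of the nrfl-1 RNAi and ALG-1 tables TC5A stayed at or below 0.5 RPM in every library; the part of the treatment in this was not tested. In both kinds of library nearly all of the TC5A value came from 1 of its 2 sequences.

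**Figure D4:**
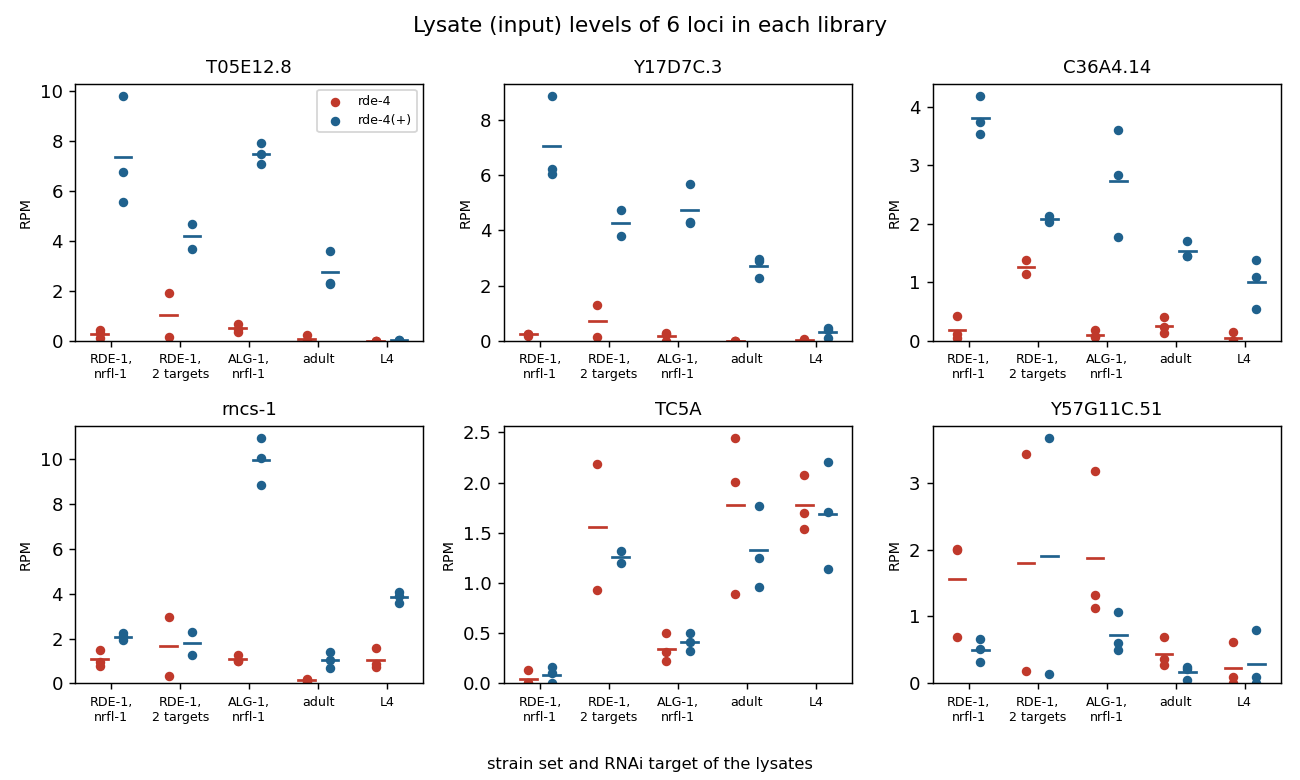
Lysate level (vertical axis, RPM) of 6 loci in each library of 5 strain sets, rde-4 in red and rde-4(+) in blue, with a bar at each mean; the sets are the GFP::RDE-1 strains with 1 or 2 RNAi targets, the HA::ALG-1 strains, untagged adults and untagged L4 larvae. T05E12.8, Y17D7C.3 and C36A4.14 are lower in rde-4 wherever they are measurable, while TC5A overlaps in every set. With 2 RNAi targets the fall of C36A4.14 is partial, with 1.15 and 1.39 RPM in rde-4, against 2.04 and 2.13 RPM in rde-4(+). The first rde-4 library there holds 0.16 RPM of T05E12.8 and 0.13 RPM of Y17D7C.3. The second rde-4 library there holds 1.91 RPM of T05E12.8 and 1.31 RPM of Y17D7C.3.

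Limma tests in the other lysates gave the same direction for these loci. In the ALG-1 strains 10 of 10 loci tested were lower in rde-4, against 2.27% of all features, with T05E12.8 at 0.48, 0.67 and 0.37 RPM in rde-4 and 7.45, 7.08 and 7.89 RPM in rde-4(+) (-2.50, SE 0.20, adjusted p = 4.89e-10). Without the third rde-4(+) input 6 loci were called. Of these 10 loci, 5 would have averaged 1 RPM without the rde-4(+) co-IPs. The mir-35 family moved with them, at 62367, 64056 and 64471 RPM in the rde-4 inputs, against 120342, 97403 and 107618 RPM in the rde-4(+) inputs, and its part was not tested. In those strains rncs-1 fell to 1.10 ± 0.16 RPM in rde-4, against 9.95 ± 1.05 RPM in rde-4(+) (SD, n = 3 each; adjusted p = 2.55e-10). In untagged adults Y17D7C.3 was listed at 0 in all 3 rde-4 libraries, against 2.89, 2.27 and 2.96 RPM in N2, and T05E12.8 and C36A4.14 were lower too. These were 3 of 4 loci tested there, against 5.27% of all features, and TC5A was the fourth. Of all 60 loci, 1 averaged 1 RPM in the rde-4 adults, against 8 in N2, so the filter favoured lower calls. In the same adults the mir-35 family had 14296, 14875 and 14639 RPM in rde-4 and 30034, 31691 and 29496 RPM in N2, and its part in the result was not tested. In L4 larvae rncs-1 fell to 1.05 ± 0.46 RPM in rde-4, against 3.85 ± 0.23 RPM in N2 (SD, n = 3 each; -1.26, adjusted p = 1.59e-05), as 1 of 2 loci tested, against 13.9% of all features. Under combined RNAi 4 of 40 loci were lower, namely Y17D7C.3, T05E12.8, E01G4.7 and Y37E11B.2, against 2.62% of all features lower and 0.908% higher. The mir-35 family had 19352 and 21686 RPM in these rde-4 inputs and 39372 and 34816 RPM in the rde-4(+) inputs, and its part was not tested either. Without the first rde-4 input 0 loci were called, without the second 2, without the first rde-4(+) input 2 and without the second 1.

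The lysate levels of these loci in rde-1 adults lay close to those in N2. The 60 loci summed to 24.2, 20.0 and 21.2 RPM in rde-1(ne300) adults, to 3.05, 5.10 and 4.56 RPM in rde-4 adults and to 20.3, 20.2 and 21.8 RPM in N2 adults. Of the 4 loci tested, 0 differed between rde-1 and N2 (limma, with 0 at an unadjusted p under 0.05), against 4.73% of all features higher and 5.36% lower. T05E12.8 had 4.12, 2.58 and 2.33 RPM in rde-1 and 2.33, 2.26 and 3.61 RPM in N2, and the difference was 0.10 (SE 0.21). The mutants were also compared with each other, and Y17D7C.3, T05E12.8 and C36A4.14 were lower in rde-4 than in rde-1, against 6.62% of all features. Of 15 loci that averaged at least 0.5 RPM over rde-1 and N2, 2 were lower in rde-1 without overlap, against 11.8% of all features, and 1 was higher, against 14%. The lower ones were F52G3.8, with 0.61, 0.81 and 0.69 RPM in rde-1 and 2.01, 1.45 and 0.95 RPM in N2, and Y116A8B.1. The higher one was the repeat PALTA3, with 1.17, 1.33 and 1.02 RPM in rde-1 and 0.13, 0.40 and 0.70 RPM in N2.

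These siRNAs were also present in animals fed the empty vector. In the L4440 co-IPs of GFP::RDE-1 the 60 loci summed to 594, 1142 and 900 RPM, against 14.8, 20.5 and 20.9 RPM in the inputs. Of all 60 loci, 34 averaged at least 1 RPM in the L4440 co-IPs, against 4 in the L4440 inputs. C36A4.14 was the strongest there, with 172, 352 and 231 RPM in the L4440 co-IPs and 0.54, 1.06 and 0.74 RPM in the inputs (7.10, SE 0.27, adjusted p = 1.3e-21). All 26 loci tested were higher in the L4440 co-IP, against 3.87% of all features higher and 91.6% lower, and all 26 were higher in the dcr-1 RNAi co-IP than in its input, against 3.39% higher and 94.1% lower. Only 4 of the 26 would have averaged 1 RPM without the co-IPs, so the filter largely fixed both counts. Of the 60 loci, 3 were listed at 0 in every L4440 co-IP. These libraries were made without the first size selection and with either of 2 kits, which the labels do not assign to libraries, so levels are not set against the other tables.

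The siRNAs bound to GFP::RDE-1 differed unevenly between RNAi against dcr-1, the gene for Dicer, and L4440. The dcr-1 RNAi co-IPs also held 15977, 12782 and 18044 RPM of siRNAs from the fed dcr-1 trigger. The L4440 co-IPs had 1.45, 2.18 and 2.34 RPM of them. The 3 strong hairpins averaged 16543 RPM in the dcr-1 RNAi co-IPs and 26733 RPM in the L4440 co-IPs. The part of the trigger siRNAs in the differences was not tested. F19B2.5 had 11.5, 10.2 and 19.3 RPM in the dcr-1 RNAi co-IPs, against 57.1, 80.2 and 38.2 RPM in the L4440 co-IPs, the largest fall (-2.01, SE 0.26, adjusted p = 9.52e-07). PAL8C had 11.95, 11.3 and 16.1 RPM in the dcr-1 RNAi co-IPs and 35.8, 67.5 and 59.3 RPM in the L4440 co-IPs (-1.93, SE 0.24). ChrIII_hairpin1 had 31.0, 25.3 and 35.2 RPM in the dcr-1 RNAi co-IPs and 80.5, 151 and 114 RPM in the L4440 co-IPs (-1.85, SE 0.25). None of these 3 loci overlapped between the groups. Altogether 8 of 26 loci were lower, against 2.27% of all features, and C36A4.14, rncs-1, TC5A, Y116A8C.27 and the shared locus F39E9.7, F55A4.4 were the others. The rncs-1 call was lost in 9 of 20 alternatives (adjusted p up to 0.192) and the C36A4.14 call in 4 of 20 (adjusted p up to 0.115).

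A pair of loci moved the other way. E01G4.7 had 36.3, 27.1 and 24.4 RPM in the dcr-1 RNAi co-IPs, against 7.11, 13.9 and 11.7 RPM in the L4440 co-IPs (1.37, SE 0.26, adjusted p = 0.000453). F52G3.8 had 33.0, 24.3 and 33.7 RPM in the dcr-1 RNAi co-IPs and 11.1, 21.03 and 18.4 RPM in the L4440 co-IPs (0.84, SE 0.25, adjusted p = 0.0316). Both loci lay above the L4440 libraries in every dcr-1 RNAi co-IP, and they made up the 2 of 26 loci called higher, against 4.75% of all features. The F52G3.8 call was lost in 5 of 20 alternatives (adjusted p up to 0.232), and its difference was 0.59 without L4440 co-IP replicate 1; the call was lost then, and without dcr-1 RNAi co-IP replicate 1 or 3. The loci not called included T05E12.8, with 80.9, 59.9 and 93.7 RPM in the dcr-1 RNAi co-IPs and 41.6, 107 and 143 RPM in the L4440 co-IPs.

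In the inputs of that experiment only ChrIII_hairpin1 passed the test. It had 2.57, 1.63 and 1.65 RPM under dcr-1 RNAi, against 3.41, 5.93 and 6.33 RPM under L4440 (-1.06, SE 0.25, adjusted p = 0.00559), as 1 of 26 loci, against 0.561% of all features lower. The difference in enrichment between dcr-1 RNAi and L4440 was itself called for 4 loci, against 1.35% of all features lower. They were PAL8C at -2.05 (SE 0.34, adjusted p = 0.000563), F19B2.5 at -1.72, and F39E9.7, F55A4.4 and Y116A8C.27. The last 2 were listed at 0 in all inputs, so that their values equal the difference between the co-IPs and hold no measure of enrichment. The F19B2.5 call was lost in 4 of 20 alternatives (adjusted p up to 0.12). Leaving out 1 library moved that count: 2 loci were called without dcr-1 RNAi co-IP replicate 1 or 3 or L4440 co-IP replicate 3, 1 without L4440 co-IP replicate 2 or L4440 input replicate 1, and 7 without L4440 co-IP replicate 1. In the inputs 2 loci were called without L4440 co-IP replicate 1 or 2.

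**Figure D5:**
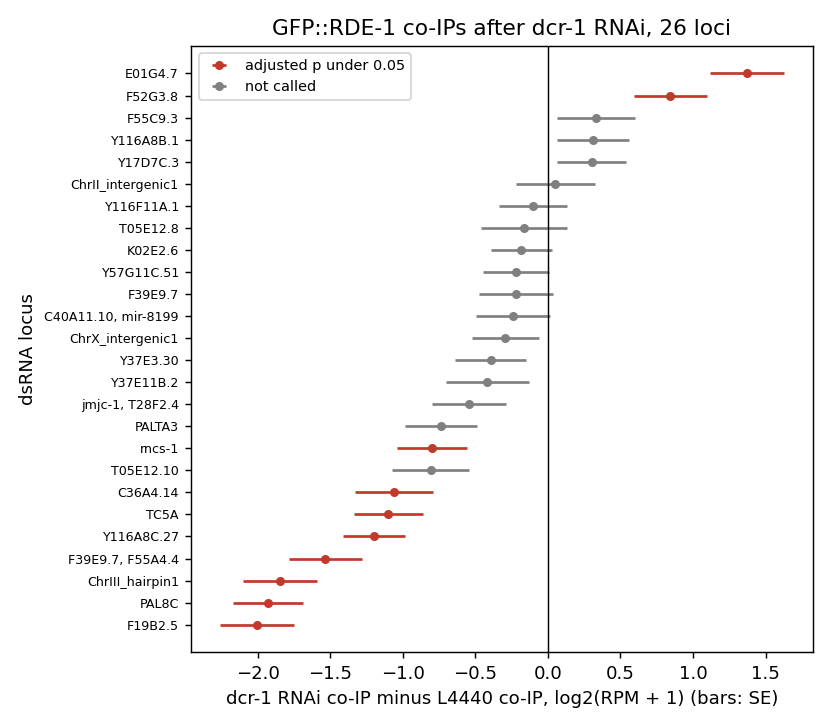
Difference between dcr-1 RNAi and L4440 co-IPs of GFP::RDE-1 (horizontal axis, log2(RPM + 1), bars are SE) for the 26 loci tested (vertical axis), with loci at an adjusted p under 0.05 in red. The values run between 1.37 for E01G4.7 and -2.01 for F19B2.5.

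HA::ALG-1 held the sum of these siRNAs at about its lysate level, while single loci went either way. The 60 loci summed to 55.7, 40.8 and 40.03 RPM in the rde-4(+) co-IPs and to 50.5, 49.1 and 54.0 RPM in the rde-4(+) inputs, while the median of all features moved by -1.86 log2. Relative to their inputs, 4 of 10 loci tested were higher in the co-IP, against 2.13% of all features. They were PALTA3, Y37E11B.2, ChrIII_hairpin1 and ChrX_intergenic1. PALTA3 had 5.80, 4.48 and 3.62 RPM in the rde-4(+) co-IPs and 1.52, 1.41 and 1.79 RPM in the rde-4(+) inputs, the largest rise (1.11, SE 0.18, adjusted p = 1.94e-06). F52G3.8 was the lowest of the 3 loci called lower, against 95.7% of all features, with 0.66, 0.39 and 1.35 RPM in the co-IPs and 2.44, 2.30 and 3.95 RPM in the inputs (-1.12, SE 0.17). Y17D7C.3 and C36A4.14 were the others called lower. Loci that the filter left out also went both ways. ChrII_intergenic1 had 0.04, 0.20 and 0.03 RPM in the co-IPs and 1.14, 1.04 and 1.75 RPM in the inputs. The locus jmjc-1, T28F2.4 had 1.14, 0.82 and 0.63 RPM in the co-IPs and 0.24, 0.07 and 0.20 RPM in the inputs. Of the 7 calls, 4 were made without the third rde-4(+) input. The filter was passed only with the rde-4(+) co-IPs by 5 of the 10 loci, which favoured higher calls. Among those 5 were Y37E11B.2, ChrIII_hairpin1 and ChrX_intergenic1, called higher, and C36A4.14, called lower, but not PALTA3.

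In rde-4 animals the ALG-1 co-IPs fell with the lysates. The 60 loci summed to 9.70, 8.37 and 9.58 RPM in the rde-4 co-IPs, against 55.7, 40.8 and 40.03 RPM in the rde-4(+) co-IPs. All 10 loci tested were lower in the rde-4 co-IP, against 1.37% of all features, and T05E12.8 was the furthest, with 0.12, 0.14 and 0.37 RPM in rde-4 and 9.27, 4.26 and 5.50 RPM in rde-4(+) (-2.55, SE 0.20, adjusted p = 1.4e-09). For 5 of the 10 loci the filter was passed only with the rde-4(+) co-IPs, so it partly fixed the direction of this count. Without the first rde-4(+) co-IP 6 loci were called. PALTA3 and rncs-1 were higher in the rde-4 co-IP than in the rde-4 input, with differences of 0.79 (SE 0.18) and 0.42 (SE 0.18), as 2 of 10 loci, against 1.82% of all features higher and 95.5% lower. Only 1 was called without rde-4 co-IP replicate 1 or 3 or without rde-4 input replicate 1 or 3. The change in enrichment was called for Y37E11B.2 only, against 0.474% of all features lower: it had 0.30, 0.00 and 0.09 RPM in the rde-4 co-IPs and 4.82, 3.08 and 4.28 RPM in the rde-4(+) co-IPs (-1.06, SE 0.22, adjusted p = 0.00757). Y37E11B.2 passed the filter only with the rde-4(+) co-IPs, which favoured this direction. With the first rde-4(+) co-IP left out, or with the replicate number as a block, 2 loci were called.

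The 5′ bases and lengths of the members were summed by level in each library. In the ALG-1 co-IPs of rde-4(+) animals, sequences beginning with T held 58.9% ± 3.4 of the members' level, against 43.5% ± 2.1 in the inputs (SD, n = 3 each). Sequences beginning with A held 14.6% ± 2.2 in these co-IPs, against 31.3% ± 2.1 in the inputs. Those of 22 nt held 48.1% ± 3.0 in the co-IPs and 37.7% ± 1.3 in the inputs, and those of 23 nt held 36.9% ± 0.6 in the co-IPs and 48.7% ± 1.8 in the inputs. The shares of T, A, 22 nt and 23 nt did not overlap between the ALG-1 co-IPs and inputs. In the GFP::RDE-1 co-IPs of rde-4(+) animals under combined RNAi, T held 47.5% ± 1.6, against 44.8% ± 3.8 in the inputs, and 23 nt held 51.3% ± 0.2, against 52.7% ± 2.9 (SD, n = 2 each). Under L4440, T held 36.1% ± 0.2 in the GFP::RDE-1 co-IPs, against 26.1% ± 2.7 in the inputs, and A held 16.5% ± 5.8, against 28.0% ± 2.8 (SD, n = 3 each). Under dcr-1 RNAi, T held 38.1% ± 1.4 in the co-IPs, against 25.9% ± 4.1 in the inputs, and A held 23.9% ± 1.7, against 44.4% ± 2.6 (SD, n = 3 each). These T and A shares did not overlap between co-IPs and inputs either. These shares are descriptions of the summed members, which a few strong loci dominate.

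Some of the loci also carried other small RNA classes in the authors' tables. Of 36 rows of 22G-RNAs at targets of 23H-RNAs, 25 were named for these loci, and of 123 rows of ERGO class 26G-RNAs, 22 were. In untagged adults, 21 of 23 of these 22G rows tested and 17 of 17 of these 26G rows were lower in rde-4 than in N2 (limma), and in L4 larvae 17 of 20 and 9 of 9 were, against the 5.27% and 13.9% of all features given above. In rde-1 adults against N2, 6 of the 23 22G rows were lower and 3 higher (limma). For the 26G rows it was 1 of 17 lower and 0 higher. Of all 8705 features, 467 were lower and 412 higher in that comparison. The ERGO class of 26G-RNAs as a whole, with these rows included, averaged 29.1 RPM in rde-4 adults and 578 RPM in N2 adults. In L4 larvae it averaged 6.02 RPM in rde-4 and 237 RPM in N2.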

How the data were processed

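Small RNA libraries were summarised per sequence or feature by the authors, and the deposited tables hold normalised values with 2 decimals. The normalisation behind the deposited values was taken to be RPM by the authors, from the equal steps of low values and the library totals, since the sources used here do not name it. The tinyRNA pipeline is named in the series description; its version, settings, genome build and handling of reads that match several places are not given in the sources used here. Of 79 labelled samples, the 59 libraries of 6 tables were used.

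The member sequences of each locus were summed, and each table was fitted whole in limma 3.58.1 (R 4.3.3) on log2(RPM + 1), with a mean-variance trend and 1 coefficient per group. Features averaging at least 1 RPM over a table's libraries were tested, with Benjamini-Hochberg adjustment over all of them and a call at an adjusted p under 0.05. The fit was tested on simulated data. Loci named were the 12 strongest and, in each comparison, those changed most in each direction among the calls; others were chosen after their values were seen. Members and lists were chosen with earlier results of these data known. Replicate numbers were not used to pair the libraries, since no comparison with 3 pairs had every correlation of deviations above 0.1. So few pairs cannot show that the libraries were unpaired, so whether a co-IP and its input belong together stays unknown. Alternatives were pseudocounts, filters, scaling to equal totals, robust variance, a replicate block, sums over all 23H-RNA sequences, and leaving out each library.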

Additional observations from a re-analysis of the deposited data

Results flagged for a closer look

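Differences between strains or treatments in the enrichment with an Argonaute passed a test of the difference itself in 3 experiments. With GFP::RDE-1 under combined RNAi, enrichment was lower in rde-4 than in rde-4(+) for 39 loci, with PAL8C at -6.95. Of the 40 loci tested, 32, PAL8C among them, passed the filter only with the rde-4(+) co-IPs, which largely fixed the direction of that count. With GFP::RDE-1 after dcr-1 RNAi, it was lower than after L4440 for 4 loci, with PAL8C at -2.05. Of those 4, F39E9.7, F55A4.4 and Y116A8C.27 were listed at 0 in all inputs, so that theirs is a difference between co-IPs. With HA::ALG-1, it was lower in rde-4 than in rde-4(+) for 1 locus, Y37E11B.2, at -1.06. That locus passed the filter only with the rde-4(+) co-IPs, which favoured this direction. All 3 differences are on the log2(RPM + 1) scale, from limma.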

How the results depend on the processing

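Of 379 alternative counts of loci, 327 stayed within 1.5 times the value reported and 52 moved, while 2486 of 2578 values of named loci kept direction and call, 92 kept only the direction and 0 reversed. With a filter at 10 RPM the counts were 8 for the inputs under nrfl-1 RNAi, 15, 15 and 14 for the rde-4(+) enrichment, the co-IPs and the interaction under combined RNAi, 11 and 11 for both enrichments of the dcr-1 RNAi experiment and 2 for its interaction; fewer loci were tested, and none in the ALG-1, L4 and adult tables. With no filter they were 2 and 0 for the rde-4 enrichment and inputs under combined RNAi, 41 and 1 for the L4440 enrichment and the dcr-1 RNAi interaction, 28, 7, 5 and 28 for the rde-4(+) enrichment, rde-4 enrichment, interaction and inputs of ALG-1, 9 in L4 larvae, and 1, 13 and 12 for rde-1 against N2, rde-4 against N2 and rde-4 against rde-1 in adults. Robust variance gave 3 for the rde-4 enrichment under combined RNAi. A pseudocount of 2 gave 1 for the inputs under combined RNAi and 2 for the ALG-1 interaction, and a pseudocount of 0.5 gave 2 for the dcr-1 RNAi interaction and 2 for its inputs. Equal totals gave 2 and sums over all 23H-RNA sequences gave 2 for those inputs, and such sums gave 4 for the ALG-1 rde-4 enrichment.

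The replicate block gave 2 loci for the ALG-1 interaction against 1 without it, and moved no other count of loci by over 1.5 times. Crossed pairing of the rde-4 libraries under combined RNAi, chosen after seeing the data, called 5 loci, as the fit without pairing did. The 26G-RNA counts were 2 in L4 larvae and 6 in adults with the 10 RPM filter, and 17 in L4 larvae with none. Without the 3 co-IPs that chose the members, an alternative added after seeing the data, 6 loci were called for the inputs under nrfl-1 RNAi, with fewer loci tested. A member threshold of 2 RPM kept 194 sequences.

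Leaving out 1 library gave 8 to 15 loci for the inputs and 3 to 4 for the rde-4 enrichment under nrfl-1 RNAi. Under combined RNAi it gave 32 to 41 for the rde-4(+) enrichment, 3 to 6 for the rde-4 enrichment, 31 to 41 for the co-IPs, 30 to 40 for the interaction and 0 to 4 for the inputs. In the dcr-1 RNAi experiment it gave 24 to 26 for each enrichment, 7 to 12 for the co-IPs, 1 to 7 for the interaction and 1 to 2 for the inputs. With ALG-1 it gave 4 to 7 and 1 to 2 for the rde-4(+) and rde-4 enrichments, 6 to 10 for the co-IPs, 1 to 2 for the interaction and 6 to 10 for the inputs. The cause of these changes was not tested. Levels under 0.244 RPM, the most that 3 reads give, limit what lysates can show.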
